A study of Homo sapiens with 6 samples.

Results

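The genes described here are 7 nuclear genes of the mitochondrial respiratory chain and of its upkeep that are known from work on hypoxia: COX4I1 and COX4I2, NDUFA4 and NDUFA4L2, LONP1, HIGD1A and ISCU. They were taken by symbol from a table of 21776 genes, and 6 of the 7 had a row in it. RNA-seq libraries were made from a cell line that the labels name SCC25, wild type in genotype. The table's column names say HNSCC only and a legend of the study names SCC9, so which line was sequenced is not settled; SCC25 and SCC9 are both established lines from oral squamous cell carcinoma. The 3 hypoxia libraries came from cells kept for 12 h in a gas mixture with 1% O2, and the 3 normoxia libraries from cells kept for 12 h in a humidified incubator with air, both with 5% CO2. All cells grew in DMEM/F12 medium with 10% fetal bovine serum and antibiotics. Reads counted on genes summed to 30186813, 36076088 and 32272716 in the hypoxia libraries and to 37278703, 29637189 and 29981208 in the normoxia libraries (replicates 1 to 3 of each). Nothing in the labels says that the libraries came from separate cultures, so p-values measure only the spread between these libraries, which may be technical.

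The respiratory chain passes electrons from nutrients to oxygen, and its last enzyme, complex IV or cytochrome c oxidase, is where oxygen is used. Mammalian cells carry more than one version of some complex IV subunits. COX4I2 can take the place of COX4I1 when oxygen is low, while the matrix protease LONP1 degrades COX4I1. NDUFA4, once assigned to complex I and now counted as a complex IV subunit, has the paralog NDUFA4L2, a target of hypoxia-inducible factor (HIF) known for lowering complex I activity, and the paralog C15orf48, known for replacing NDUFA4 in complex IV in inflamed cells. HIGD1A is a small inner membrane protein, named for its induction by hypoxia, that binds complex IV. ISCU is the scaffold on which iron-sulfur clusters for complexes I to III are built, and its mRNA is a known target of miR-210, a microRNA induced by hypoxia.

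A pair of microRNAs bears on these genes, and their mature sequences are shown, as RefSeq gives them on GRCh38.p14, because they share all but the last base of the seed and because each lies in or beside a gene that was measured here. The seed, bases 2 to 8, is in capitals.
hsa-miR-210-3p: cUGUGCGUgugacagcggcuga
hsa-miR-147b-3p: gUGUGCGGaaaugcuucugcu
The first lies at chr11:568112-568133 on the minus strand, and MIR210HG is its host transcript. The second lies at chr15:45433098-45433118 on the plus strand, within an exon of C15orf48. Letters pairing with the miR-147b-3p seed, CCGCACA, occurred once in the longest 3′ UTR of NDUFA4 in GENCODE v29 (ENST00000339600.5), starting at its base 56. The window shown lies at chr7:10933573-10933594 on the minus strand of GRCh38, with the site in capitals.
NDUFA4 site: tccagaagccacatCCGCACAa
In the same search, 2.9% of 12258 genes held these letters, and NDUFA4 was the only one of the 7 members that did. The letters pairing with the miR-210-3p seed, ACGCACA, were in 3.29% of the 12258 genes and in 0 of the 7 members, ISCU included. These are exact matches of letters in 1 transcript per gene, and neither mature microRNA was measured here. SDHD and RAD52, also reported as miR-210 targets, likewise held 0 matches, so the search does not show that ISCU lacks a site.

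The letters ACGTG and GCGTG, the core of the element that HIF binds, were looked up on both strands in RefSeq promoters (GRCh38.p14) from 250 bases before to 50 bases after a gene's start. One or the other was in 48.4% of 35116 promoters, so their presence is common. Entries were matched for 6 members, all but COX4I2. COX4I1 and NDUFA4 held neither set of letters, whereas NDUFA4L2, LONP1, HIGD1A and ISCU each held at least 1 match. A window around 1 match is shown for each of these and for C15orf48, since among genes with such letters HIGD1A and ISCU fell under hypoxia and C15orf48 rose. The match is in capitals, and CACGT is ACGTG read on the opposite strand.
NDUFA4L2: gtgtgcctccGCGTGggggcgtttc
LONP1: gccgggcgtcACGTGcgtttcgcgg
HIGD1A: gccgagctctCACGTctgtctccgc
ISCU: gaaggcggacGCGTGcacggagcgg
C15orf48: tcgggcgcttCACGTcagccgcaga
The windows lie at chr12:57240768-57240792 (minus strand), chr19:5720180-5720204 (minus), chr3:42804655-42804679 (minus), chr12:108562477-108562501 (plus) and chr15:45430425-45430449 (plus). The matches begin 20, 48, 179, 109 and 175 bases before the nearest RefSeq start, in that order.

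Hypoxia was compared with normoxia by edgeR's quasi-likelihood test over the 14255 genes with enough counts to be tested, and p-values were adjusted over all of them by the method of Benjamini and Hochberg. A gene is called at an adjusted p under 0.05. The response was broad: 77.8% of all genes tested were called, 39.2% higher and 38.5% lower, and the median log2-fold change of all genes tested was 0.02. Of the 7 members, 5 were tested. NDUFA4, HIGD1A and ISCU fell, none of the 5 rose, and COX4I1 and LONP1 were not called. NDUFA4L2 had too few counts to be tested, and COX4I2 had no row. A count of 3 called among 5 tested is not above that background. With a log2-fold change beyond 1 in size also required, 30.4% of all genes and 0 of the 5 members were called. In bulk RNA, fewer cells that express a gene and less RNA per cell cannot be told apart.

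The labels were first checked on 5 genes with a known response to HIF. EGLN3, a prolyl hydroxylase acting on HIF, had counts of 18603, 27222 and 24182 in hypoxia and 218, 107 and 317 in normoxia, a log2-fold change of 6.69. VEGFA (2.80), CA9 (2.71), PDK1 (1.80) and BNIP3 (1.74) rose too, and all 5 had no overlap between the conditions, as 80.5% of the genes tested did. The squamous markers were present in part. The keratin KRT5 had 3494 to 4424 counts in every library, with a log2-fold change of -0.18, and TP63, the squamous lineage factor, had 1499 to 2442 counts. KRT14, the usual partner of KRT5, had a single count in 1 normoxia library and 0 in the other 5, which goes against the usual pattern of basal keratinocytes. KRT6A fell (log2-fold change -4.12), SFN, the most abundant of the 6 markers, fell (-0.80), and DSG3 rose (1.35).

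**Figure D1:**
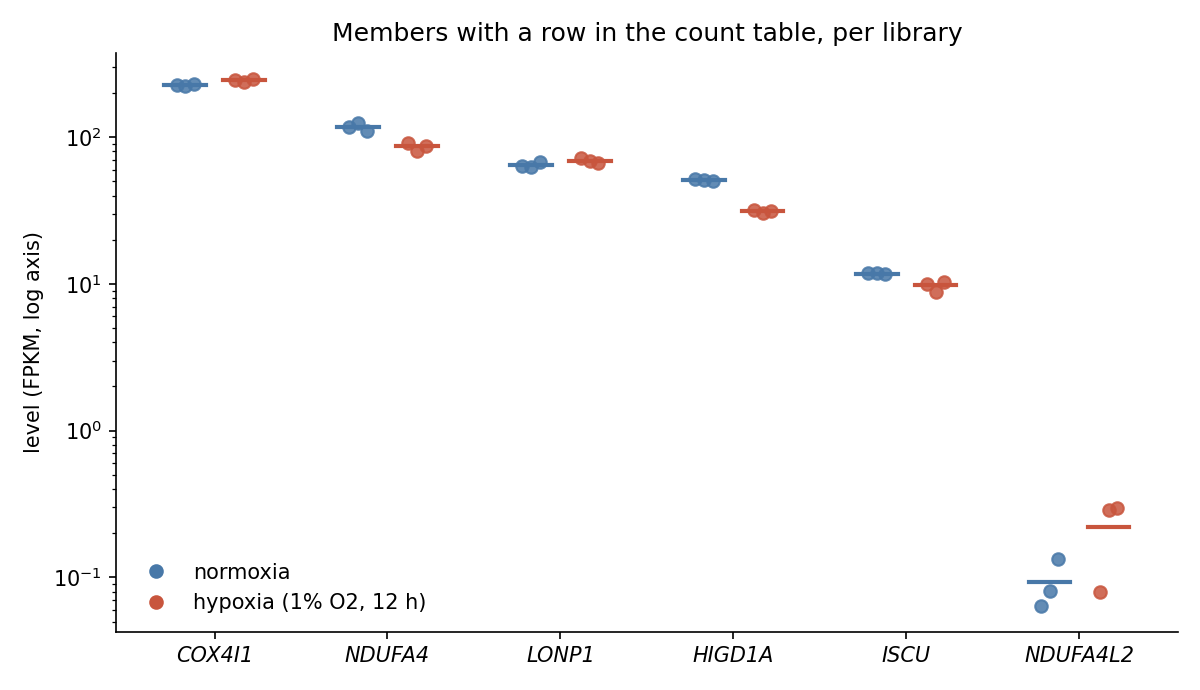
FPKM (logarithmic axis) of the 6 members with a row, one point per library, with a bar at the mean of each condition of 3 libraries. HIGD1A and NDUFA4 sit lower in every hypoxia library than in any normoxia library, and NDUFA4L2 lies below 0.3 FPKM throughout.

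Levels per length differed widely among the members. In FPKM, which divides the counts by gene length and library total, the order in normoxia was COX4I1, NDUFA4, LONP1, HIGD1A, ISCU and NDUFA4L2, and it was the same in hypoxia. No neighbours in that order overlapped within a condition. The ranges ran from 222 to 230 FPKM for COX4I1 down to 0.064 to 0.133 FPKM for NDUFA4L2 in normoxia.

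COX4I1, the common form of the subunit that carries the main regulatory sites of complex IV, was the most abundant member. Its level was 247, 239 and 248 FPKM under hypoxia, by replicate, and 228, 222 and 230 FPKM in normoxia. In FPKM every hypoxia library thus lay above every normoxia library, by a small margin. In CPM, counts scaled to a library total that was adjusted by the TMM method, the conditions overlapped, with 303, 287 and 306 CPM against 283, 286 and 289 CPM. The log2-fold change was 0.06 (standard error 0.050, 95% interval -0.04 to 0.17, edgeR adjusted p = 0.255). The interval leaves room for a rise of up to 0.17 and for a fall of up to 0.04 on the log2 scale.

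COX4I2, the oxygen-regulated form, had no row. The table lists no gene with 0 counts in all libraries, and its smallest row sum is 1 count, so no level and no ratio to COX4I1 could be computed. Its known regulators were measured. RBPJ, which activates the oxygen-responsive element of the COX4I2 promoter, rose from 80.9 ± 5.28 to 151 ± 6.19 CPM (SD, n = 3; log2-fold change 0.90). CXXC5, an inhibitor at the same element, rose from 7.11 ± 1.01 to 39.1 ± 4.4 CPM (2.46). CHCHD2, an activator there, fell from 451 ± 6.59 to 388 ± 21.4 CPM (-0.22). The activators therefore went in different directions, and the inhibitor rose. Of the HIF alpha subunits, HIF1A mRNA fell from 320 ± 14.7 to 67.0 ± 10.4 CPM (-2.26, adjusted p = 2.08e-13), while EPAS1, which encodes HIF-2 alpha, rose from 105 ± 9.84 to 276 ± 12.9 CPM (1.40, adjusted p = 3.48e-12). All 5 of these genes were called and none had overlapping conditions, as held for 77.8% and 80.5% of all genes tested.

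NDUFA4, the common member of its pair, fell. Its counts were 5645, 5922 and 5719 in hypoxia and 8947, 7570 and 6762 in normoxia, or 91.9, 80.7 and 87.1 against 118, 126 and 111 FPKM. All 3 hypoxia libraries lay below all normoxia libraries. The log2-fold change was -0.50 (standard error 0.065, 95% interval -0.63 to -0.36, adjusted p = 1.96e-06), a change of -29.1%. It ranged from -0.56 to -0.44 when any 1 library was left out.

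NDUFA4L2 was close to the limit of what the libraries could measure. Its counts were 3, 13 and 12 in hypoxia and 3, 3 and 5 in normoxia, that is 0.079, 0.287 and 0.297 against 0.064, 0.081 and 0.133 FPKM. Hypoxia replicates 2 and 3 were above all normoxia libraries, and hypoxia replicate 1 was at their level. The gene did not pass the filter and was not tested. Over the summed libraries, 28 counts against 11 gave a ratio of 2.42 in counts per total (exact 95% interval 1.17 to 5.40, covering counting error only and not the spread between libraries). Without the filter, the log2-fold change was 1.17 (standard error 0.83, edgeR adjusted p = 0.233 over 21776 genes). With hypoxia replicate 1 left out, the gene passed the filter and was called, at 1.59 (standard error 0.67, adjusted p = 0.0411), so that 1 library decided whether it was called. It also passed the filter with normoxia replicate 1, 2 or 3 left out and was then not called (adjusted p = 0.267, 0.192 and 0.0893).

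The balance of the pair was compared within each library. On the log2 scale, the ratio of NDUFA4L2 to NDUFA4 in FPKM was -10.2, -8.13 and -8.20 in hypoxia and -10.8, -10.6 and -9.70 in normoxia. In every library NDUFA4L2 was thus less than 0.4% of NDUFA4. The mean difference was 1.55 (two-sided exact permutation test, p = 0.2, where 0.1 is the smallest p that 3 against 3 allows), and the conditions overlapped. The difference ranged from 1.19 to 2.22 with any 1 library left out.

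The other paralog of NDUFA4 was far more abundant. C15orf48 had 3911, 4400 and 4600 counts in hypoxia and 1665, 1249 and 1882 in normoxia. It rose from 65.3 ± 14.7 to 172 ± 13.6 FPKM (SD, n = 3), and edgeR gave a log2-fold change of 1.35 with a standard error of 0.107 (adjusted p = 2.98e-09). The level per length of C15orf48 was below that of NDUFA4 in all 3 normoxia libraries and above it in all 3 hypoxia libraries. That order in hypoxia rests on the gene lengths behind the FPKM, 2035 bases for NDUFA4 and 763 for C15orf48. The annotation that gave these lengths is not known. In counts, NDUFA4 stayed above C15orf48 in every library, with 5645, 5922 and 5719 counts in hypoxia. Of the summed FPKM of the 3 genes, C15orf48 made up 64.9%, 66.4% and 68.1% under hypoxia, by replicate, against 33.2%, 30.5% and 42.6% under normoxia. NDUFA4 made up 35.1%, 33.5% and 31.8% against 66.8%, 69.4% and 57.4%. The summed FPKM itself was higher in hypoxia, at 259 ± 16.9 against 184 ± 8.67. This comparison of shares was chosen after the values had been seen, so no test is given for it. GENCODE v29 places 2 antisense genes over exons of C15orf48, by 163 bases on the other strand and by 213 bases on the same strand. Neither has a row in the table, and how the counting treated such reads is not given in the sources used here.

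**Figure D2:**
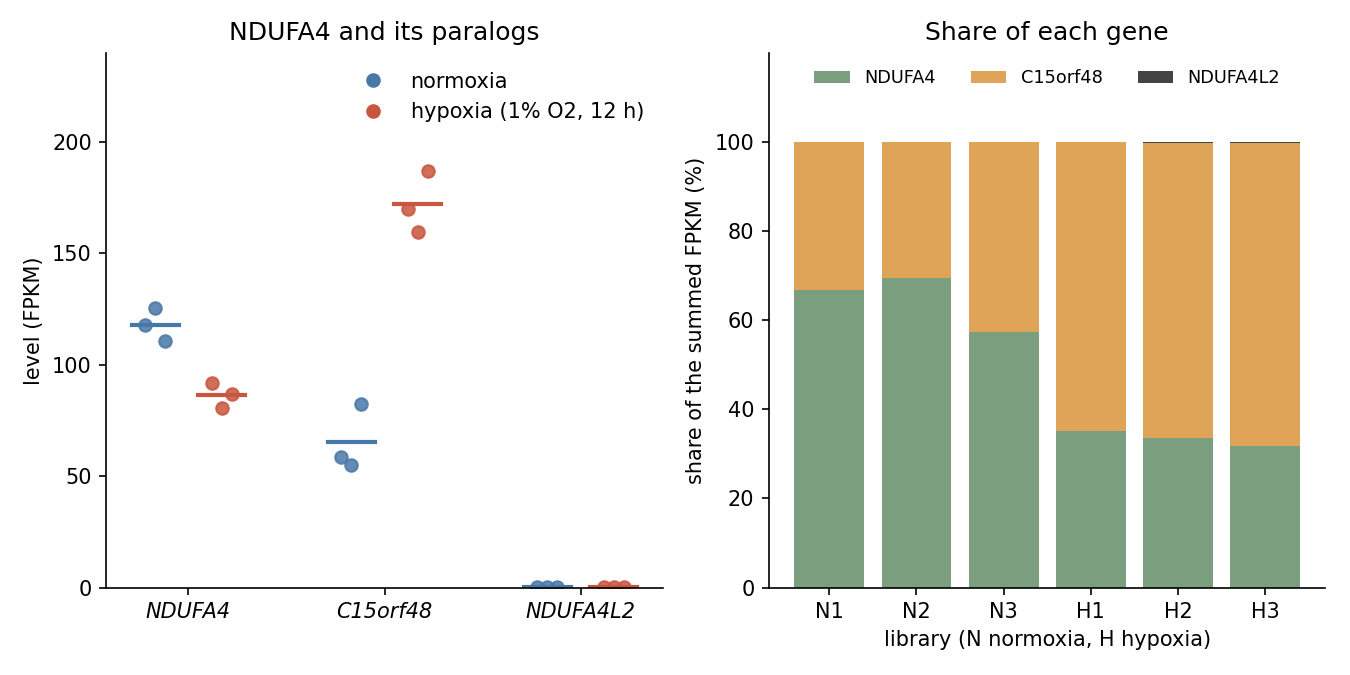
Left, FPKM of NDUFA4, C15orf48 and NDUFA4L2 in each library, with a bar at the mean of each condition. Right, the share of each gene in their summed FPKM per library (N1 to N3 normoxia, H1 to H3 hypoxia), in which C15orf48 holds 30.5% to 42.6% in normoxia and 64.9% to 68.1% in hypoxia.

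LONP1, the matrix protease, had close to the same level in both conditions. It had 71.7, 68.5 and 66.6 FPKM in hypoxia and 63.4, 62.3 and 67.8 FPKM in normoxia, and the conditions overlapped. The log2-fold change was 0.05 (standard error 0.053, 95% interval -0.06 to 0.16, edgeR adjusted p = 0.405). LONP2, its peroxisomal paralog, rose slightly from 75.1 ± 2.30 to 84.4 ± 2.48 CPM (0.17, adjusted p = 0.00932), but was not called without normoxia replicate 1 (adjusted p = 0.0693) or with no filter on counts (0.0746).

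Among the 11 other mitochondrial proteases and processing enzymes listed, 7 fell, 2 rose and 2 were not called, with a median log2-fold change of -0.48. The share called, 81.8%, was near the 77.8% of all genes tested, of which 38.5% were lower and 39.2% higher. PITRM1, which degrades cleaved presequences, fell (-1.27), as did AFG3L2, a subunit of the matrix-facing AAA protease (-1.01). OMA1, the stress-activated inner membrane protease, rose (0.62). SPG7, the partner of AFG3L2, rose by 0.18, a call that was lost when hypoxia replicate 1 or 3 or normoxia replicate 2 was left out (adjusted p up to 0.159) and with no filter on counts (0.0633). The summed level of the list was 733 ± 16.2 CPM in hypoxia and 1059 ± 32.2 CPM in normoxia.

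HIGD1A showed the largest change among the 5 tested members, and it was a fall. Its counts were 2886, 3318 and 3028 in hypoxia and 5810, 4562 and 4501 in normoxia. The levels were 31.8, 30.6 and 31.2 against 51.8, 51.1 and 49.9 FPKM, so the replicates lay within 2 FPKM of each other and the conditions were far apart. The log2-fold change was -0.76 (standard error 0.052, 95% interval -0.87 to -0.65, adjusted p = 5.11e-10), a change of -40.8%. HIGD2A, a paralog that takes part in complex IV assembly, went the other way, from 63.7 ± 2.26 to 77.6 ± 2.58 FPKM (0.24, adjusted p = 0.00258). HIGD2A was therefore above HIGD1A per length in both conditions. HIGD2B had 2 counts in 1 hypoxia library and 0 elsewhere, and HIGD1B and HIGD1C had no row. GENCODE v29 lists 17 pseudogenes of HIGD1A and 2 genes that overlap its exons on the same strand by 337 and 488 bases; none has a row here, and reads could have been shared with them.

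ISCU had the smallest of the 3 falls. Its counts were 1032, 1085 and 1138 in hypoxia and 1494, 1193 and 1189 in normoxia, or 10.1, 8.84 and 10.4 against 11.8, 11.8 and 11.7 FPKM. The conditions did not overlap, and the spread was wider in hypoxia. The log2-fold change was -0.32 (standard error 0.074, 95% interval -0.47 to -0.16, adjusted p = 0.000882), a change of -19.7%. Leaving out any 1 library moved it between -0.38 and -0.24.

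MIR210HG, the host transcript of miR-210, had 1607, 1829 and 1640 counts in hypoxia against 147, 67 and 154 in normoxia (log2-fold change 3.72, standard error 0.149, adjusted p = 6.3e-13). Of 5 other reported miR-210 targets, 3 fell and 2 rose, beside the 38.5% lower and 39.2% higher of all genes tested. GPD1L, a regulator of HIF-1 stability, fell by 1.03 on the log2 scale, COX10, which makes heme for complex IV, by 0.79, and SDHD, an anchor subunit of complex II, by 0.37. EFNA3, an ephrin ligand, rose (2.53), as did RAD52, a DNA repair protein (0.73). The 7 letters of the miR-210-3p site were in the longest 3′ UTR of GPD1L, COX10 and EFNA3, and so in genes of both directions.

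Of 18 tested genes that work with ISCU in iron-sulfur cluster assembly, 11 fell, 2 rose and 5 were not called, and the median log2-fold change was -0.41. The share called, 72.2%, was below the 77.8% of all genes tested, of which 38.5% were lower. HSPA9, the mitochondrial chaperone that helps release clusters from ISCU, fell from 590 ± 42.5 to 245 ± 12.7 CPM (-1.27, adjusted p = 4.44e-12), and BOLA3, which acts late in the pathway, fell by 1.23 on the log2 scale. BOLA1, a partner of late cluster assembly, rose (0.75). NFS1, the cysteine desulfurase that supplies sulfur to ISCU, was not called (-0.11, adjusted p = 0.168), but was called lower without normoxia replicate 3 (adjusted p = 0.0253), and its log2-fold change ranged from -0.17 to -0.06 with any 1 library left out.

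**Figure D3:**
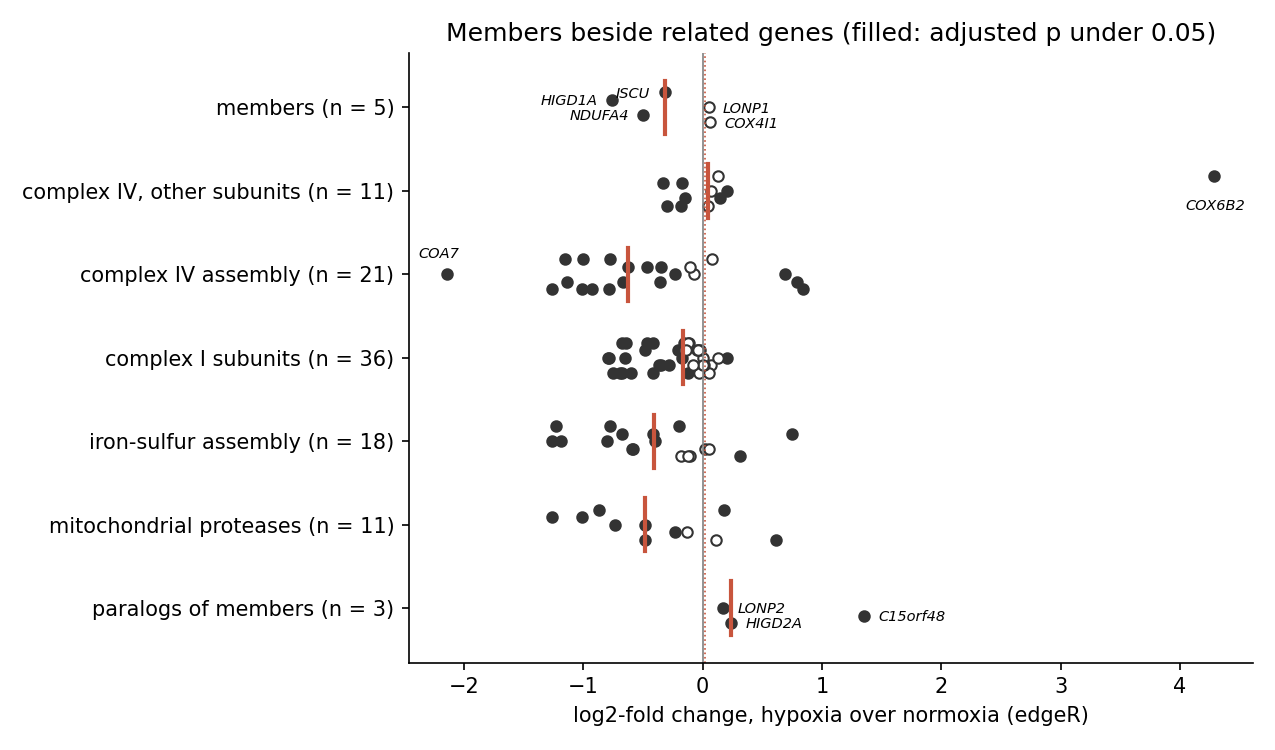
Log2-fold change (hypoxia over normoxia, edgeR) of each tested gene in the members and 6 related lists; filled points were called, open points were not, the red bar is the median of a list and the dotted line that of all genes tested. The members HIGD1A, NDUFA4 and ISCU lie below 0 and COX4I1 and LONP1 just above it, while COX6B2 stands at 4.29 and COA7 at -2.14.

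The other nuclear subunits of complex IV gave a measure of how far the enzyme's mRNAs moved around COX4I1 and NDUFA4. Of 15 listed, 11 had a row and were tested, of which 5 fell, 3 rose and 3 were not called, with a median log2-fold change of 0.05. The share called, 72.7%, was below the 77.8% of all genes tested. COX7B (-0.33) and COX5A (-0.30) fell furthest, and NDUFA4 at -0.50 lay below them, although the difference between these genes was not tested. COX7A2L, a factor of supercomplex assembly, rose (0.20). COX5B rose too (0.15), a call that was lost when hypoxia replicate 3 or normoxia replicate 1 or 2 was left out (adjusted p up to 0.0927) and with no filter on counts (0.157). The count of called subunits was 5 in place of 8 without normoxia replicate 2. COX6A2, COX7A1, COX7B2 and COX8C had no row, nor did the mitochondrially encoded MT-CO1, MT-CO2 and MT-CO3.

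COX6B2, an isoform of COX6B1 best known from testis, changed far more than any other subunit tested. It had 486, 575 and 373 counts in hypoxia and 15, 16 and 38 in normoxia (log2-fold change 4.29, standard error 0.255, adjusted p = 7.2e-11). All hypoxia libraries were thus above all normoxia libraries. Per length it was still a small part of the pair, at 3.40%, 3.66% and 2.38% of the COX6B1 and COX6B2 sum in hypoxia and 0.0864%, 0.105% and 0.254% in normoxia. COX6B1 itself fell by 0.17 on the log2 scale (adjusted p = 0.0212), a call that was lost without hypoxia replicate 2 or normoxia replicate 2 (adjusted p up to 0.114) and when every library had to reach 10 counts (0.172). A gene of GENCODE v29 without a row, AC020922.1, overlaps the exons of COX6B2 on the same strand by 1178 bases.

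**Figure D4:**
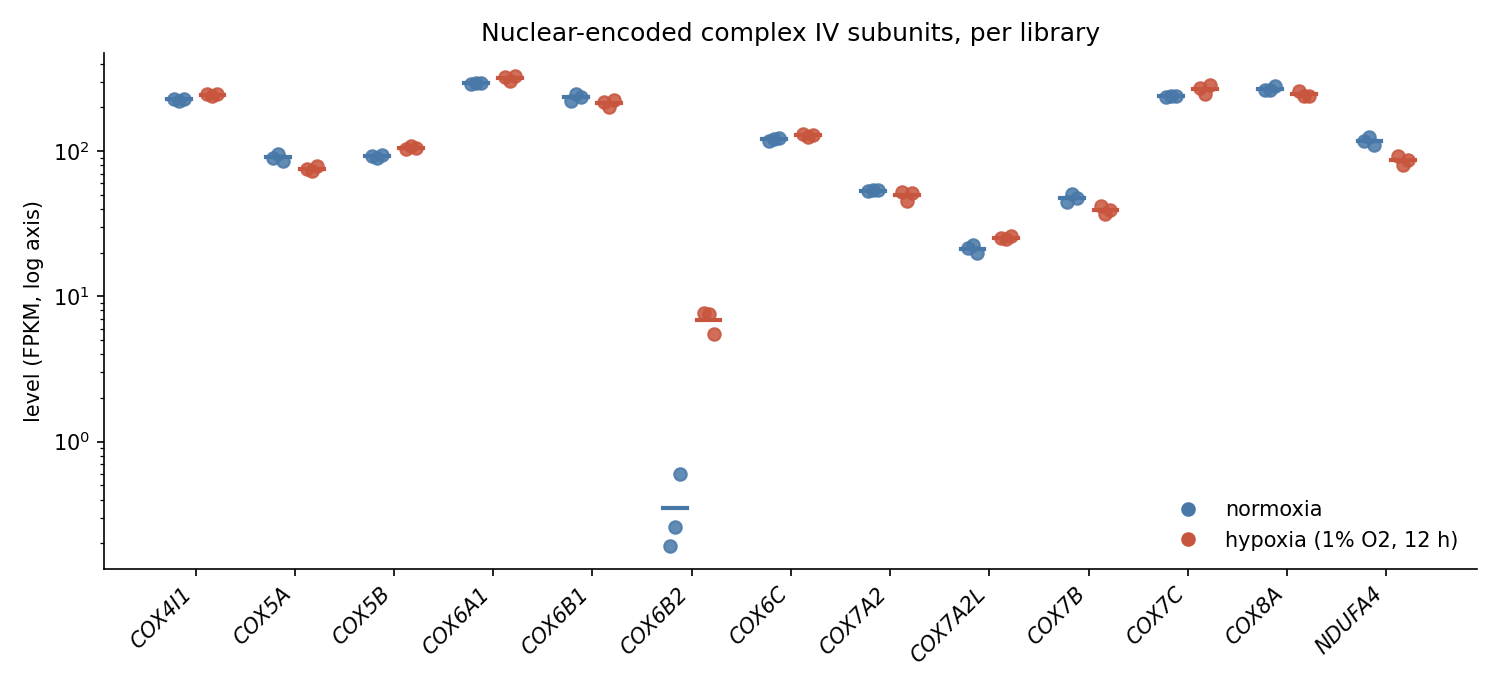
FPKM (logarithmic axis) of 13 nuclear complex IV subunits per library, with a bar at the mean of each condition. All but COX6B2 lie above 19 FPKM in every library with small shifts between the conditions, whereas COX6B2 goes from 0.351 ± 0.222 FPKM in normoxia to 6.93 ± 1.23 FPKM in hypoxia.

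Of 21 tested assembly factors of complex IV, 15 fell, 3 rose and 3 were not called (median log2-fold change -0.62). The share called, 85.7%, stands beside 77.8% of all genes tested, of which 38.5% were lower. Their summed level was 593 ± 9.84 CPM in hypoxia against 805 ± 18.8 CPM in normoxia. COA7 had the largest fall, from 47.5 ± 1.31 to 10.8 ± 0.707 CPM (-2.14, adjusted p = 2.08e-13), followed by TACO1, the translational activator of MT-CO1 (-1.26). COA5 (0.84), SURF1, an assembly factor mutated in Leigh syndrome (0.79), and COX19 (0.69) rose. The nuclear subunits of complex I, to which NDUFA4 was once assigned, had a share of calls of 58.3%, beside the 77.8% of all genes tested, with 20 lower, 1 higher and 15 not called among 36. NDUFS3 (-0.80) and NDUFA9 (-0.78) fell furthest and NDUFB11 rose (0.21, not called without hypoxia replicate 3, adjusted p = 0.107). The median of the list was -0.16.

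Because COX4I2, NDUFA4L2 and HIGD1B are known from pericytes, markers of those cells were read beside NDUFA4L2. The summed level of the 7 pericyte and smooth muscle markers with a row was 110, 124 and 115 CPM in hypoxia and 27.9, 28.7 and 35.8 CPM in normoxia, and 4 of the 5 tested rose, as did 39.2% of all genes tested. NOTCH3 made up most of it in hypoxia, with 85.6 ± 7.86 CPM. In normoxia NOTCH3 was at 12.7 ± 4.77 CPM, and ACTA2 was more abundant (16.7 ± 0.645 CPM). CSPG4 (3.05, from 2 to 5 counts a library in normoxia), ACTA2 (0.71) and RGS5 (0.82, a call lost when any 1 of 4 libraries was left out) rose, and PDGFRB did not pass (0.96, adjusted p = 0.0507). Of the other markers on this list, ABCC9 and MYH11 had at most 1 and 4 counts in a library, and KCNJ8 had no row. Of the fibroblast markers, whose summed level was 18.5 CPM in hypoxia and 3.87 CPM in normoxia, only COL1A1 had enough counts to be tested (2.26), and it made up nearly all of both sums. LUM had 27, 9 and 8 counts in hypoxia against 1, 1 and 2 in normoxia, COL3A1 had 2, 0 and 1 against 0 in each, and DCN 2, 0 and 0 against 2, 4 and 0. Of the endothelial markers, with sums of 1.42 and 0.451 CPM, only CDH5 was tested (1.14, a call also lost when any 1 of 4 libraries was left out). PECAM1 had 5, 9 and 10 counts against 2, 0 and 0, VWF had 10, 9 and 4 against 0 in each, and CLDN5 had no row. Among the leukocyte markers CD68 was not called (-0.09), and PTPRC had 2 counts in 1 library and 0 elsewhere. The part of these transcripts in the counts of NDUFA4L2 was not tested.

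The genes whose profile over the 6 libraries lay nearest to a member, out of 11573 compared by the distance between centred log2 CPM, had nearly the same fold change. They were LDHB (distance 0.061, log2-fold change -0.50) and MAGEB2 (0.063, -0.48) for NDUFA4. For HIGD1A they were SSB (0.024, -0.75) and SMIM15 (0.045, -0.74), and for ISCU PARK7 (0.071, -0.32) and MEA1 (0.074, -0.33). The nearest to COX4I1 were ATF4 (0.031) and PRKAR1A (0.034), and to LONP1 they were LLGL1 (0.055) and FKBP10 (0.057). The profiles cover 3 hypoxia and 3 normoxia libraries, so a small distance says little more than that the size of the change was shared.

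**Figure D5:**
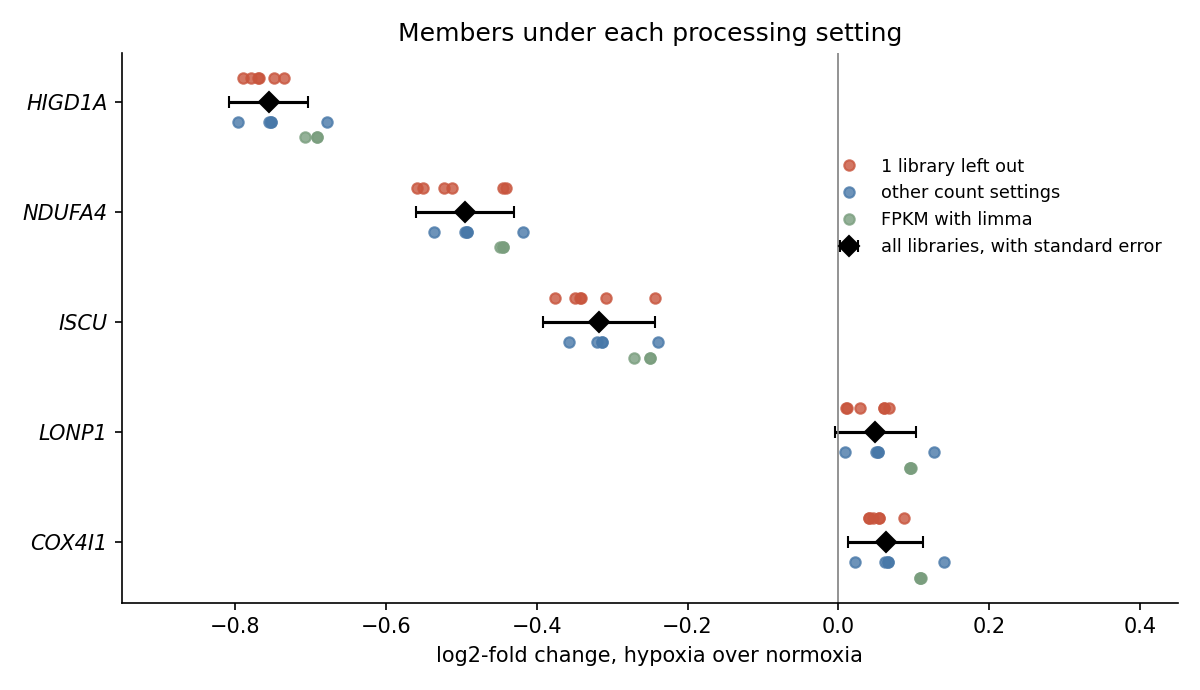
Log2-fold change of the 5 tested members with all libraries (diamond, bar of 1 standard error), with 1 library left out, under other settings for the counts, and from log2 FPKM with limma. HIGD1A, NDUFA4 and ISCU stay below 0 under every setting shown, and LONP1 and COX4I1 stay between 0 and 0.15.

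The 3 falls kept their direction and an adjusted p under 0.05 under the other normalizations, tests and filters, the replicate block and each library left out, but none of them passed when a log2-fold change beyond 1 in size was also required. HIGD1A ranged from -0.80 to -0.68, NDUFA4 from -0.54 to -0.42 and ISCU from -0.36 to -0.24 over 8 other settings. COX4I1 and LONP1 kept their sign, but when every library had to reach 10 counts, a filter that raised the log2-fold change of shared genes by a median of 0.08, both were called higher, at 0.14 (adjusted p = 0.0138) and 0.13 (adjusted p = 0.0362).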

How the data were processed

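RNA of cells labelled SCC25 was read in 6 libraries made with a SMARTER mRNA kit, 3 per condition. The authors deposited whole-number counts per gene, without normalization, and FPKM that follow from those counts, a gene length and the library total for 21775 of 21776 genes (relative error within 0.001%). Aligner, counter, annotation and use of strand are not given in the sources used here. The submitters' processing notes name GRCm38 and mm10, which are mouse builds, while the rows carry human symbols, so the positions at which the counted reads lay are not given. Coordinates printed beside sequences are those of RefSeq or GENCODE v29 on GRCh38, not of the count table. The files' column names give the condition and HNSCC, the labels SCC25.

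The counts entered edgeR 4.0.16 under R 4.3.3 (glmQLFit, glmQLFTest, TMM, filterByExpr, 14255 genes, Benjamini-Hochberg adjustment at 0.05), with condition as the only term. CPM use TMM-adjusted totals, with a prior count of 2 for log2 CPM. The standard error is the log2-fold change divided by the square root of F. FPKM were tested as log2(FPKM + 1) with limma 3.58.1 where the mean FPKM reached 1. Permutation tests were exact and two-sided. Alternatives were DESeq2 size factors, the DESeq2 1.42.0 Wald test, no filter, at least 10 counts in every library, a replicate block, each library left out, a log2-fold change beyond 1, and a pseudocount of 0.1 or no filter for FPKM. On simulated data with 194 of 14084 genes changed by a log2-fold change of 1, edgeR found 183, with 5.67% of its calls false. The simulation changed few genes and gave all genes the same dispersion, whereas 77.8% of the genes tested were called in the data. It therefore does not give the share of false calls among them. Replicates differed by more than sampling noise (chi-square per gene 4.90 to 10.8).

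The members and the lists were chosen with earlier results of these data known. Named are the members, the 2 largest increases and decreases called in each list, all genes of lists of up to 6, the most abundant marker of each marker list, and the 2 nearest profiles per member. A gene that this rule would name is not reported here. COX5B, COX6B1, COX19, NFS1 and the shares of C15orf48 and COX6B2 were added after their values were seen. At this depth, a gene whose libraries of 1 condition all hold at most 3 counts has no measurable level in that condition.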

Additional observations from a re-analysis of the deposited data

How the results depend on the processing

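The number of genes called was 11090, and 4338 with a log2-fold change beyond 1 in size also required; the latter left 0 of the 5 tested members called in place of 3. With at least 10 counts in every library all 5 were called, with COX4I1 at 0.14 (adjusted p = 0.0138) and LONP1 at 0.13 (adjusted p = 0.0362). Limma on log2(FPKM + 1) without a filter called COX4I1 at 0.11 (adjusted p = 0.0121), and with the filter it did not (adjusted p = 0.0655). The cause of these changes was not tested. Leaving out 1 library gave 10669 to 11390 genes and 3 to 4 members called, the fourth being NDUFA4L2 without hypoxia replicate 1. It gave log2-fold changes of 0.04 to 0.09 for COX4I1, -0.56 to -0.44 for NDUFA4, 0.01 to 0.07 for LONP1, -0.79 to -0.73 for HIGD1A and -0.38 to -0.24 for ISCU, and 1.02 to 1.64 for the log2 ratio of pooled NDUFA4L2 counts. With the replicate number as a block, 10875 genes and 3 members were called. Same-numbered libraries did not deviate together (r = 0.018, -0.069 and 0.0012). With 3 libraries per condition this cannot decide whether the numbers pair them, and the labels do not say. Blocked, the difference in the log2 ratio of NDUFA4L2 to NDUFA4 was again 1.55. It could not move, since the mean of the 3 same-numbered differences equals the difference of the means. Of 154 counts of calls in lists under alternatives, 146 stayed within 1.5 times and 8 did not, 1 of them for complex IV (5 without normoxia replicate 2) and the rest for fibroblast and endothelial lists with 1 gene called. The ratio of COX4I2 to COX4I1 could not be computed, since COX4I2 has no row. Among the members with a row, NDUFA4L2 had the fewest counts, at most 13 in a library.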
